A study of Mus musculus with 9 samples.

Results

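The 10 genes described here encode the Steap metalloreductases (Steap1, Steap2, Steap3 and Steap4) and 6 proteins that take up, move, store, oxidise or release iron: Tfrc, Slc40a1, Slc11a2, Cp, Fth1 and Hmox1. All 10 were found among the 19938 genes measured in mammary tumours grown from 3 mouse cell lines. Each gene was read from an array feature annotated to it alone. Only Steap2 had more than 1 such feature, and the brighter was taken, the features having means of 6.86 and 4.08 on the log2 scale. The genes were chosen by their log2 differences between the lines on these same 9 arrays together with their shared biology, so the tests below set each difference against the spread between arrays and are not independent evidence for the choice of genes.

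The tumours came from the transplantable lines NDL, Met1 and SSM2, with 3 snap-frozen samples from each. The hosts were FVB/NJ females, 6 to 8 weeks old, that received cells bilaterally in fat pads still holding their own mammary epithelium, and tumours 5 to 10 mm wide were taken. As background, NDL carries an activated ErbB2 transgene, Met1 expresses the polyoma virus middle T antigen, and SSM2 expresses hormone receptors. The labels name no agent given to any group. Each group is 1 cell line, so an effect of the driving oncogene cannot be told apart from other differences between the lines. The labels do not say that the samples of a line came from separate animals, so each p measures the spread between samples, which may be technical.

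Iron reaches most cells bound to transferrin, which the transferrin receptor Tfrc carries into endosomes. There a Steap protein, in red cell precursors mainly Steap3, reduces ferric to ferrous iron, and the transporter Slc11a2 (DMT1) passes it to the cytosol. Ferritin, built of the heavy chain Fth1 and a light chain, stores the metal, ferroportin (Slc40a1) exports it, and ceruloplasmin (Cp), a copper enzyme, oxidises it for loading onto transferrin. Haem oxygenase (Hmox1) frees iron from haem, and macrophages that clear old red cells are known for using Hmox1 and ferroportin together. Steap proteins other than Steap1 reduce copper as well as iron, and Steap4 is known as a gene induced by tumour necrosis factor in fat cells.

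Signals were RMA values on the log2 scale, where 1 unit is a 2-fold difference. The median signal of a gene was 6.45 and the 25th percentile 4.91, and the signal of 3 Y-linked transcripts, a gauge of background, was 2.61 to 3.85. The upper quartile of signal was 7.85, 7.84 and 8.09 in NDL replicates 1 to 3 and between 7.98 and 8.08 in the other arrays. Across genes, which are not independent replicates, the lowest correlation between arrays of a line was 0.947 in NDL, 0.987 in Met1 and 0.962 in SSM2, and the highest between lines was 0.949. The number of arrays limits the precision. Tumour pieces hold several cell types, so fewer cells of a type and less RNA per cell cannot be told apart in any value below.

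Steap1, Steap2 and Steap4 were lower in NDL than in both other lines, while Steap3 was not called in any comparison. The exporter gene Slc40a1 was lower in Met1 than in NDL and SSM2, and Slc11a2 and Fth1 were lower in SSM2 than in NDL, and lower in SSM2 than in Met1 too. Of the 10 genes, 1 was higher and 3 were lower in NDL than in Met1 at an adjusted p under 0.05 (limma, adjusted over all genes), where 8.88% of all genes were higher and 10.2% lower. Between NDL and SSM2, 2 were higher and 3 lower in NDL, against 9.35% and 7.52% of all genes. Between Met1 and SSM2, 2 were higher and 1 lower in Met1, against 7.10% and 4.71% of all genes. The median difference over the 10 genes was -0.70 for NDL minus Met1, -0.45 for NDL minus SSM2 and 0.55 for Met1 minus SSM2. Over all genes it was 0.06, 0.09 and 0.04. Tfrc, Cp and Hmox1 passed in no comparison.

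**Figure D1:**
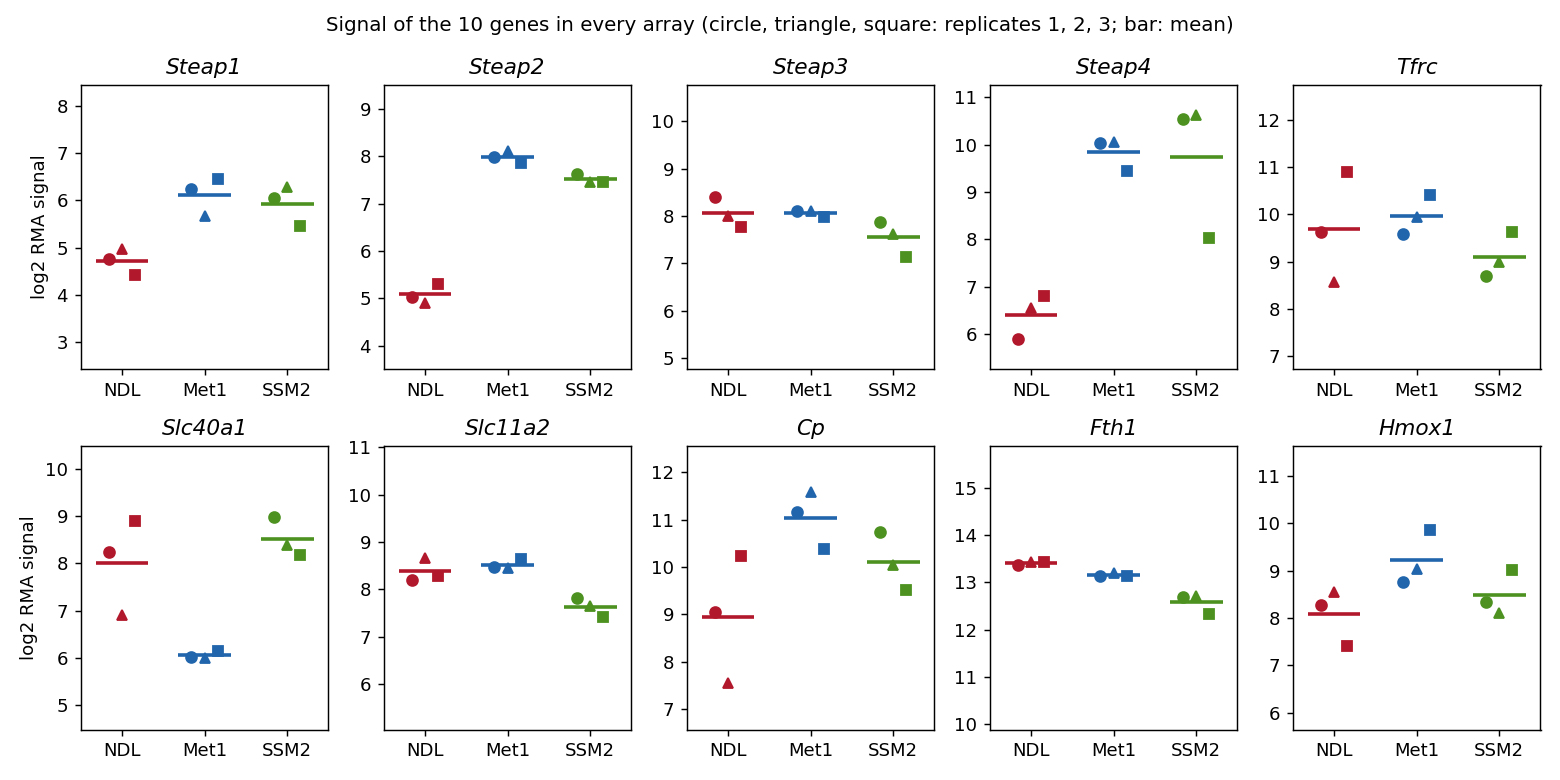
Log2 RMA signal (vertical axes, each spanning the same number of units) of the 10 genes in NDL, Met1 and SSM2 tumours; points are arrays and bars are means of 3. The NDL arrays lie below all others for Steap1, Steap2 and Steap4, the Met1 arrays lie lowest for Slc40a1, and the NDL arrays are widely spread for Tfrc, Slc40a1 and Cp.

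Steap2, a six-transmembrane reductase of the endosome and plasma membrane, had the lowest adjusted p of the 10 genes in both comparisons of NDL. It stood at 5.04, 4.91 and 5.32 in the NDL arrays, against 7.98, 8.11 and 7.85 in Met1 and 7.63, 7.45 and 7.47 in SSM2. The 3 NDL arrays lay more than 2 units below the lowest array of either other line. They were close to the 25th percentile of signal, where fold sizes are uncertain. Steap2 was 7.44-fold lower in NDL than in Met1, with a log2 difference of -2.90 (SE 0.13, adjusted p = 1.04e-05), and 5.39-fold lower than in SSM2 (-2.43, SE 0.13, adjusted p = 1.76e-05). Both calls held in every fit with 1 array left out, with differences from -3.01 to -2.81 against Met1 and from -2.54 to -2.34 against SSM2. The other Steap2 feature had 3.95 to 4.38 in all 9 arrays, and with both features averaged the differences were -1.41 and -1.15, both still called. Between Met1 and SSM2 the difference was 0.47 (SE 0.13, adjusted p = 0.0569) and the arrays did not overlap. It passed without NDL replicate 2 (adjusted p = 0.0472) or NDL replicate 3 (0.0252), arrays that enter this comparison only through the shared estimate of spread.

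Steap4, the family member known from inflamed fat tissue, had the widest range of line means among the 10 genes. Its NDL arrays stood at 5.89, 6.55 and 6.79, against 10.04, 10.07 and 9.45 in Met1 and 10.54, 10.64 and 8.04 in SSM2. NDL did not overlap with either line, and SSM2 replicate 3 lay below the other SSM2 arrays and all Met1 arrays. The gene was 10.9-fold lower in NDL than in Met1 (-3.44, SE 0.64, adjusted p = 0.00668) and 10.0-fold lower than in SSM2 (-3.33, SE 0.64, adjusted p = 0.00947). Without SSM2 replicate 3 the difference from SSM2 was -4.18, and with NDL replicate 3 as the single NDL array neither call held (-3.06, adjusted p = 0.137, and -2.94, adjusted p = 0.181). Between Met1 and SSM2 the difference was 0.11 (95% interval -1.34 to 1.57, adjusted p = 0.958), and it turned to -0.74 without SSM2 replicate 3.

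Steap1, which lacks the reductase domain of its relatives and is known as a surface antigen of prostate tumours, had a low signal throughout. It stood at 4.76, 4.98 and 4.43 in NDL, against 6.23, 5.67 and 6.44 in Met1 and 6.06, 6.27 and 5.45 in SSM2. All NDL arrays lay below all others, and the NDL mean of 4.72 was under the 25th percentile of signal, so the size of the difference depends on the background. The log2 difference was -1.39 for NDL minus Met1 (2.62-fold lower, SE 0.27, adjusted p = 0.0083) and -1.20 for NDL minus SSM2 (2.30-fold lower, adjusted p = 0.0188). The call against SSM2 ended without NDL replicate 1 (adjusted p = 0.0615), SSM2 replicate 1 (0.0563) or SSM2 replicate 2 (0.0618), and with array weights on all 9 arrays (0.0627). With NDL replicate 3 as the single NDL array, neither call held (adjusted p = 0.0614 against Met1 and 0.101 against SSM2). Met1 and SSM2 differed by 0.19 (95% interval -0.43 to 0.80).

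Steap3, the endosomal reductase of red cell precursors, did not follow its relatives. Its arrays stood at 8.40, 8.00 and 7.78 in NDL, 8.10, 8.10 and 7.98 in Met1 and 7.88, 7.61 and 7.14 in SSM2. NDL overlapped with both other lines, and the Met1 arrays lay above the SSM2 arrays by a narrow margin. The difference between NDL and Met1 was 0.00 in size (95% interval -0.49 to 0.48), and SSM2 was lower by margins that did not pass (NDL minus SSM2 0.51, adjusted p = 0.129, and Met1 minus SSM2 0.51, adjusted p = 0.184).

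The 3 Steap genes that were lower in NDL lie near one another on chromosome 5, where Steap2 and Steap1 are adjacent and 2 measured genes, Zfp804b and Tex47, stand between Steap1 and Steap4 in RefSeq order. Neither of those passed between NDL and either line, and their line means, between 3.72 and 4.21, were under the 25th percentile of signal. Of the 22 other genes in the stretch from 10 measured protein-coding genes before Steap2 to 10 after Steap4, a window chosen after these values were seen, 2 were lower in NDL in both comparisons. Over all genes 3.59% were lower in NDL in both comparisons and 5.13% higher. The 2 were Abcb1b, a drug efflux pump (-3.16, adjusted p = 8.28e-05, and -2.00, adjusted p = 0.00084, for NDL minus Met1 and NDL minus SSM2), and Sri, the calcium-binding protein sorcin (-0.82, adjusted p = 0.0465, and -1.02, adjusted p = 0.023). The calls of Sri against Met1 and SSM2 were lost in 6 and 4 of 9 fits that each left 1 array out: in both comparisons when NDL replicate 1 or 2 or SSM2 replicate 2 was omitted, in the first also when any Met1 array was, and in the second when SSM2 replicate 1 was (adjusted p up to 0.158 and 0.0894). They ended too with only the 2 lines compared (adjusted p = 0.0531 and 0.0774), and the call against Met1 after cyclic loess (0.0532). Those of Abcb1b held in all 9. Over the 22 genes the median difference was -0.26 for NDL minus Met1 and -0.29 for NDL minus SSM2.

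**Figure D2:**
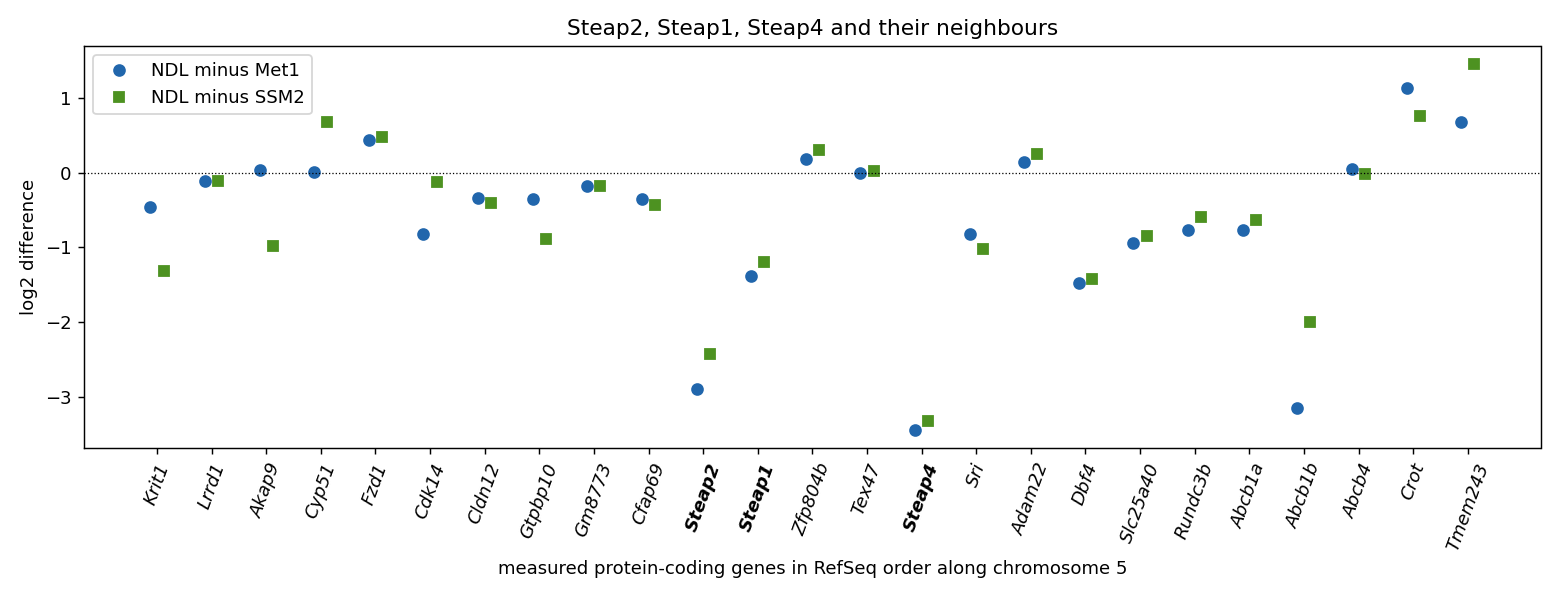
Log2 differences (vertical axis) for NDL minus Met1 and NDL minus SSM2, for measured protein-coding genes in their order along chromosome 5 (horizontal axis), with Steap genes in bold. Steap2, Steap1, Steap4 and Abcb1b lie at differences of -1.20 or lower in both comparisons, as does Dbf4 (-1.47 and -1.43), which passed in neither.

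RefSeq promoters, reaching from 250 bases before to 50 after an annotated start (GRCm38.p6), were at hand for 7 of the 10 genes, in 15 windows. Those of the 3 Steap genes that were lower in NDL are printed here, 5′ to 3′, so that their sequences can be compared. Capitals mark matches, on either strand, to any of 5 motifs: TGACNNNGC (antioxidant response element), TGANTCA (AP-1), GGGANTNCC (a form of the kappa B site), TTCNNNGAA (STAT) and TTGCNNAA (C/EBP). The windows are chr5:5749268-5749567 for Steap1 and chr5:5694519-5694818 for Steap2, the outermost of its 3 windows at hand, both on the minus strand. That of Steap4 is chr5:7960222-7960521 on the plus strand.
Steap1: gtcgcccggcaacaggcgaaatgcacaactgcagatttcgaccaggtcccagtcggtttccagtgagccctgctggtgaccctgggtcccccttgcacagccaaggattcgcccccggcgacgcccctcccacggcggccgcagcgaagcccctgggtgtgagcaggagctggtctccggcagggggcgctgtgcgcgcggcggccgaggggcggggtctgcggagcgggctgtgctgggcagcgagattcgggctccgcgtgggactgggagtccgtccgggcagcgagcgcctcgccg
Steap2: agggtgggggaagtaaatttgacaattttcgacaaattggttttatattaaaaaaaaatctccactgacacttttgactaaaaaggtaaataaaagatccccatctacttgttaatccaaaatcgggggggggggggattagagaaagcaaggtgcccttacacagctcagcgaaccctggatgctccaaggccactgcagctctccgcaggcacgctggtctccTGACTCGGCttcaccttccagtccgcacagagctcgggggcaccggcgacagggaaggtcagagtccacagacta
Steap4: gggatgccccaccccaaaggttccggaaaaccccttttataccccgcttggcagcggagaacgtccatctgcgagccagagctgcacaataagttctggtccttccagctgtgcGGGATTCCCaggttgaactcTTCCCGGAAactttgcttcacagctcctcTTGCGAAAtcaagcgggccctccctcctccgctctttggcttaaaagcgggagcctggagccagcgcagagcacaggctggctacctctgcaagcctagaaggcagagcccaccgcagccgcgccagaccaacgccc

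The Steap4 window held 3 matches: GGGATTCCC from base -136, TTCCCGGAA from -116 and TTGCGAAA from -87, counted from the annotated start. Such a kappa B form was found in 3.95% of 32851 promoter windows, the STAT form in 8.30% and the C/EBP form in 10.8%. The printed Steap2 window held 1 match, TGACTCGGC from base -25, a form found in 12.4% of windows, and the Steap1 window, with 72.3% G and C, held none of the 5. Of the other windows of Steap2, which are not printed, 1 held a STAT form (TTCGTGGAA from base -135 of its own start), a motif that the Steap4 window held too. The kappa B and C/EBP forms were not particular to Steap4. A window of Steap3, which was not called, held both (GGGAATCCC from base -175 and TTTTGCAA from -223). C/EBP forms also lay in a Cp and an Fth1 window, and an AP-1 form, found in 7.81% of windows, in another Cp window. The motifs were picked after the array values were seen. A match is a run of letters and not a measured binding site, and no match says only that these letters are not in this window.

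Genes whose pattern over the 9 arrays was most like that of Steap2 and Steap4 were found by the root mean square difference of values centred on each gene's own mean. For Steap2 these were Prdx4 (0.17 log2 units), a peroxiredoxin of the endoplasmic reticulum, Slc7a6 (0.27), an amino acid transporter, Pcolce (0.27), an enhancer of procollagen processing, Id3 (0.28), a helix-loop-helix inhibitor, and Abcb1b (0.36). For Steap4 the closest were Ltbp1 (0.70), Akr1b8 (0.70), Slpi (0.73), Gfra1 (0.73) and Asap1 (0.78). Prdx4, for example, had means of 6.64 in NDL, 9.69 in Met1 and 9.22 in SSM2.

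Among the uptake genes, Tfrc, the transferrin receptor, did not separate the lines. It stood at 9.62, 8.57 and 10.89 in NDL, against 9.58, 9.94 and 10.40 in Met1 and 8.70, 8.997 and 9.61 in SSM2. The NDL arrays spanned the values of both other lines, with an SD of 1.16 where the median SD of all genes in NDL was 0.20. The differences were -0.28 for NDL minus Met1 (95% interval -1.49 to 0.94), 0.59 for NDL minus SSM2 (-0.62 to 1.80) and 0.87 for Met1 minus SSM2 (-0.34 to 2.08).

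Slc11a2, the proton-coupled transporter that moves ferrous iron out of endosomes, was lower in SSM2 than in the other lines. Its arrays stood at 8.20, 8.66 and 8.29 in NDL, 8.48, 8.45 and 8.65 in Met1 and 7.81, 7.65 and 7.41 in SSM2. Every SSM2 array lay below every other array. Relative to SSM2, the gene was 1.70-fold higher in NDL (0.76, SE 0.16, adjusted p = 0.0125) and 1.87-fold higher in Met1 (0.90, SE 0.16, adjusted p = 0.00684), and both calls held with any 1 array left out. The call against NDL ended with Met1 left out of the fit (adjusted p = 0.0505) or with NDL replicate 3 alone (0.101). NDL and Met1 differed by -0.14 (95% interval -0.49 to 0.21).

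Fth1, the ferritin heavy chain that carries the ferroxidase site of the storage shell, had signal near the top of the array's range. It stood at 13.38, 13.43 and 13.44 in NDL, 13.14, 13.19 and 13.14 in Met1 and 12.68, 12.72 and 12.34 in SSM2. The lines did not overlap in any comparison, with NDL above Met1 and Met1 above SSM2. Compared with SSM2, Fth1 was 1.79-fold higher in NDL (0.84, SE 0.12, adjusted p = 0.00214) and 1.49-fold higher in Met1 (0.58, SE 0.12, adjusted p = 0.0142), a call that ended without Met1 replicate 1 (adjusted p = 0.0548) or Met1 replicate 2 (0.0606). The step between NDL and Met1 was 0.26 (SE 0.12) and did not pass (adjusted p = 0.162). RefSeq lists the pseudogenes Fth-ps2 and Fth-ps3, and whether transcripts of such copies add to the Fth1 signal was not tested.

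Slc40a1, which encodes ferroportin, the only known cellular iron exporter in mammals, was lowest in Met1. Its arrays stood at 8.23, 6.90 and 8.89 in NDL, against 6.02, 6.00 and 6.15 in Met1 and 8.97, 8.38 and 8.17 in SSM2. The Met1 arrays were close together and below all others, and NDL replicate 2 was the nearest to them. Met1 was 5.48-fold below SSM2 (-2.46, SE 0.44, adjusted p = 0.00855), and this held with any 1 array left out. NDL was 3.87-fold above Met1 (1.95, SE 0.44, adjusted p = 0.0164), and that call ended without NDL replicate 1 (adjusted p = 0.0679) or Met1 replicate 1, 2 or 3 (0.0558, 0.0571 and 0.0507). NDL and SSM2 differed by -0.50 (95% interval -1.52 to 0.51).

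Cp, the copper-containing ferroxidase that works with ferroportin, ran the other way between NDL and Met1. Its arrays stood at 9.06, 7.55 and 10.24 in NDL, against 11.16, 11.58 and 10.39 in Met1 and 10.74, 10.04 and 9.51 in SSM2. No NDL array reached the lowest Met1 array, while NDL and SSM2 overlapped. The difference of -2.10 between NDL and Met1 (SE 0.64) missed the threshold (adjusted p = 0.0543), and -1.15 between NDL and SSM2 did not pass either (adjusted p = 0.233). Without NDL replicate 3, the highest NDL array, both passed (-2.74, adjusted p = 0.00975, and -1.80, adjusted p = 0.0411). The difference between Met1 and SSM2 was 0.95 (95% interval -0.52 to 2.42). In NDL, replicate 2 was the lowest and replicate 3 the highest array for Tfrc, Slc40a1 and Cp alike.

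Hmox1, the inducible haem oxygenase, showed no called difference. It stood at 8.28, 8.56 and 7.42 in NDL, 8.76, 9.03 and 9.86 in Met1 and 8.33, 8.11 and 9.02 in SSM2. All Met1 arrays lay above all NDL arrays, and SSM2 overlapped with both. NDL minus Met1 was -1.13 (SE 0.39, adjusted p = 0.079), NDL minus SSM2 -0.40 (adjusted p = 0.476) and Met1 minus SSM2 0.73 (adjusted p = 0.317). Arrays of the 2 lines did not overlap for 38.2% of all genes between NDL and Met1, beside 7 of the 10 genes. The shares were 31.6% between NDL and SSM2 and 31.7% between Met1 and SSM2, beside 5 of the 10 genes in each.

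**Figure D3:**
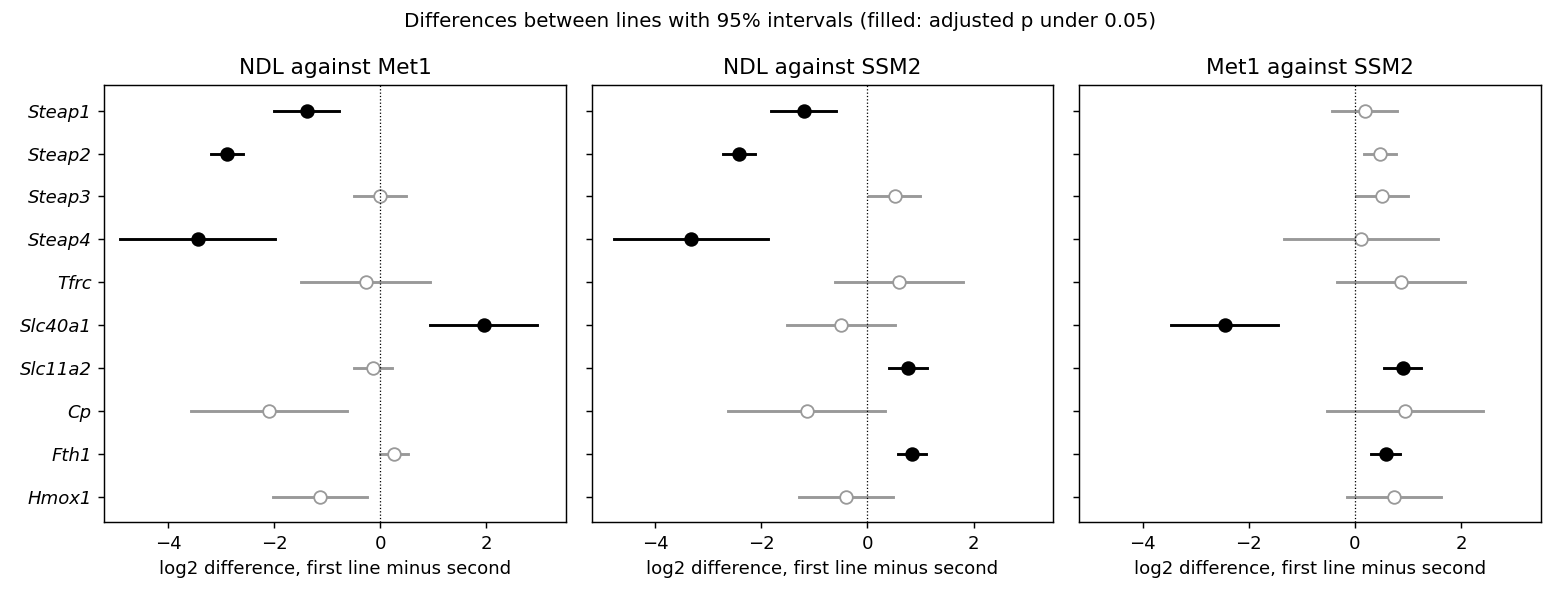
Log2 differences (horizontal axes) of the 10 genes in the 3 comparisons, with 95% intervals from the fit; filled points passed an adjusted p of 0.05. Steap2 has the narrowest interval among the called differences of NDL against Met1, and Steap4 and Cp have the widest intervals in every comparison.

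Markers of other cell types differed between the arrays, and their part in the results for the 10 genes was not tested. The epithelial list (9 of 9 markers measured) averaged 10.53 ± 0.06 in NDL, 7.25 ± 0.92 in Met1 and 10.83 ± 0.09 in SSM2 (SD, n = 3). All 9 markers were called lower in Met1 than in NDL, where 8.88% of all genes were, and than in SSM2, where 4.71% were. The macrophage list (11 of 11 measured) averaged 9.03 ± 0.37 in NDL, 10.26 ± 0.12 in Met1 and 9.20 ± 0.72 in SSM2. Of the 11 macrophage markers, 9 were called lower in NDL than in Met1, where 10.2% of all genes were. Between Met1 and SSM2, 5 were called higher and 0 lower in Met1, where 7.10% and 4.71% of all genes were. Between NDL and SSM2, 1 was called higher and 1 lower in NDL, where 9.35% and 7.52% of all genes were. Cd163, described below, was not in this list.

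SSM2 replicate 3, the array with the lowest SSM2 value for Steap1, Steap3, Steap4, Slc40a1, Slc11a2, Cp and Fth1, also had the lowest SSM2 mean for the macrophage (8.47), fibroblast (9.07), adipocyte (5.74), neutrophil (4.80) and endothelial (7.01) lists. In SSM2 replicate 1 these lists stood at 9.91, 10.70, 7.60, 6.68 and 7.80. SSM2 replicate 3 was the highest SSM2 array for Tfrc (9.61), Hmox1 (9.02) and the epithelial list (10.94), and lay between the others for Steap2. The adipocyte list (8 of 9 measured) ranged from 6.00 to 6.89 in NDL, from 5.86 to 6.40 in Met1 and from 5.74 to 7.60 in SSM2, and the ranges overlapped. The NDL array with the highest adipocyte (6.89) and macrophage (9.42) means was replicate 2. It had the lowest NDL values of Steap2, Tfrc, Slc40a1 and Cp and the highest of Steap1, Slc11a2 and Hmox1. Of the red cell precursor list 3 of 8 markers were analysed here, with means from 5.46 to 5.98 over the 9 arrays. Of all markers, the adipocyte hormone gene Lep and the neutrophil genes Ly6g and Mmp8 lay under the 25th percentile of signal in every line.

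**Figure D4:**
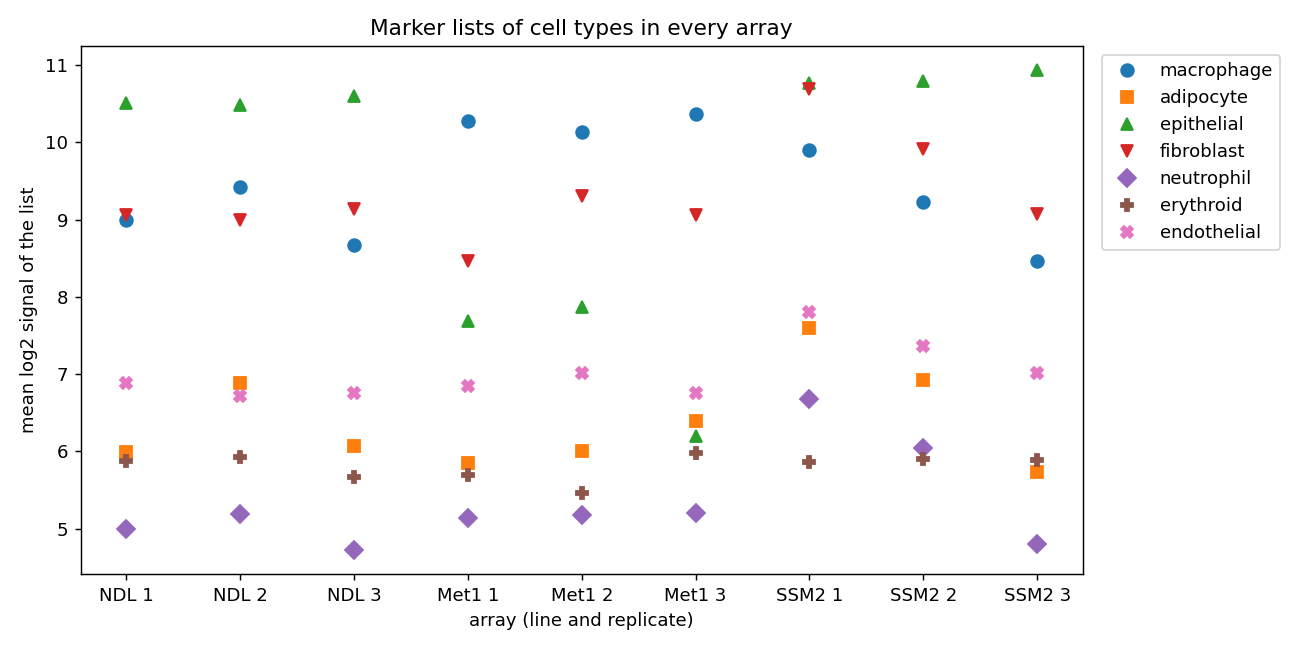
Mean log2 signal (vertical axis) of 7 lists of cell type markers in each of the 9 arrays (horizontal axis). The epithelial list is lowest in the Met1 arrays. SSM2 replicate 3 has the lowest SSM2 values of the macrophage, fibroblast, adipocyte, neutrophil and endothelial lists and the highest of the epithelial list.

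Around these 10 genes, 51 of 54 other genes of iron, haem and copper handling, listed by role, were analysed here. Between NDL and Met1, 9 were higher and 8 lower in NDL, where 19.1% of all genes were called. Between NDL and SSM2 it was 9 higher and 7 lower (16.9% of all genes), and between Met1 and SSM2 5 higher and 5 lower in Met1 (11.8% of all genes). The median difference of the list was 0.04, 0.13 and 0.08 in the 3 comparisons, beside 0.06, 0.09 and 0.04 over all genes. The number called between NDL and Met1 was 10 when NDL replicate 1 was left out, and 7, 9 and 11 when Met1 replicates 1, 2 and 3 were. Between NDL and SSM2 it was 9 without SSM2 replicate 2 and 24 without NDL replicate 3, and between Met1 and SSM2 it was 4, 4 and 6 without Met1 replicates 1, 2 and 3 and 6 without SSM2 replicate 2.

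Flvcr2, a membrane transporter reported to carry haem and choline, gave the widest difference of the list. It stood at 10.22, 10.05 and 10.63 in NDL, against 5.71, 5.78 and 5.33 in Met1 and 5.72, 5.27 and 5.06 in SSM2. NDL was higher by 4.70 than Met1 (adjusted p = 1.12e-05) and by 4.95 than SSM2 (adjusted p = 7.15e-06). Slc39a8 (ZIP8), an importer of zinc, manganese and iron, was higher in NDL too (1.92 and 1.99, adjusted p = 0.00709 and 0.00727), as was Slc22a17 (0.97 and 1.20, adjusted p = 0.0019 and 0.000835), a receptor for the siderophore-binding lipocalin Lcn2. The calls of Flvcr2 and Slc39a8 in both comparisons, and that of Slc22a17 against Met1, held with any 1 array left out.

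Lcn2 itself, which binds bacterial siderophores, and Trf, transferrin, were lowest in SSM2. Lcn2 averaged 13.70 ± 0.04 in NDL, 12.82 ± 0.14 in Met1 and 10.78 ± 0.85 in SSM2 (SD, n = 3), and was higher in NDL by 2.92 and in Met1 by 2.04 than in SSM2 (adjusted p = 0.00102 and 0.00699). Trf was higher in NDL than in SSM2 by 2.33 (adjusted p = 0.0112), and the 1.47 of Met1 minus SSM2 did not pass (adjusted p = 0.0827). Cd163, the haemoglobin-haptoglobin scavenger receptor of macrophages, was lower in NDL (-2.31) and in Met1 (-2.94) than in SSM2 (adjusted p = 0.00902 and 0.00353). Tmprss6, a protease that restrains hepcidin, was lower as well (-2.34 and -2.57, adjusted p = 0.0248 and 0.0201), with SSM2 arrays at 9.99, 9.12 and 7.34. Its call against NDL ended when NDL replicate 1 or 2 or SSM2 replicate 2 was omitted, and that against Met1 when any Met1 array or SSM2 replicate 2 was (adjusted p up to 0.0768 and 0.0728). Both ended with only the 2 lines compared (adjusted p = 0.0829 and 0.0585). Hp, haptoglobin, differed between NDL and SSM2 (-2.24, adjusted p = 0.045), a call that survived the omission of NDL replicate 2 or SSM2 replicate 3 and of no other array (adjusted p up to 0.155), and that ended with only the 2 lines compared (0.122).

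The metallothioneins, which bind copper and zinc, were ordered alike in the 3 lines. Mt2 averaged 8.71 ± 0.45 in NDL, 11.11 ± 0.51 in Met1 and 12.55 ± 0.07 in SSM2 (SD, n = 3), and was lower in NDL than in Met1 (-2.39, adjusted p = 0.000784) and SSM2 (-3.83, adjusted p = 8.73e-05) and lower in Met1 than in SSM2 (-1.44, adjusted p = 0.0126). The last of these calls ended without Met1 replicate 1 or 2 (adjusted p up to 0.0569). Mt1 was lower in Met1 than in SSM2 by a log2 difference of -1.10 (adjusted p = 0.0014). Of 6 copper genes, 3 were called lower in NDL than in Met1, where 10.2% of all genes were, and 4 lower in NDL than in SSM2, where 7.52% were.

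Between NDL and Met1, 2 of 5 storage genes were called lower in NDL, and of 4 mitochondrial iron genes analysed here 3 were called higher and 1 lower, beside 8.88% of all genes higher and 10.2% lower. Ftl1, the ferritin light chain, named here after its values were seen because it is the partner of Fth1, averaged 11.45 ± 0.08 in NDL, 12.14 ± 0.10 in Met1 and 11.70 ± 0.18 in SSM2 (SD, n = 3). It was lower in NDL than in Met1 (-0.69, SE 0.12, adjusted p = 0.00456), where Fth1 differed by 0.26 and did not pass. Its call between Met1 and SSM2 (0.44, adjusted p = 0.0484) survived the omission of NDL replicate 3 or SSM2 replicate 1 and of no other array (adjusted p up to 0.179), and ended after cyclic loess (0.111), with a variance trend (0.0662) and with the signal filter (0.056). Slc25a37, mitoferrin, which carries iron into mitochondria, was lower in NDL than in Met1 (-1.50, adjusted p = 0.00226) and higher in Met1 than in SSM2 (1.20, adjusted p = 0.00952).

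Weaker calls between NDL and Met1 were Slc39a14 (-1.37, adjusted p = 0.021), an importer of unbound iron, Ncoa4 (-0.84, adjusted p = 0.0277), the receptor that delivers ferritin for breakdown, and Cpox (0.68, adjusted p = 0.0449), a haem synthesis enzyme. Dropping single arrays ended these calls in 4, 4 and 6 of 9 fits, all 3 of them without Met1 replicate 1 or 2, Slc39a14 also without NDL replicate 1 or 2, Ncoa4 without NDL replicate 2 or Met1 replicate 3, and Cpox without NDL replicate 1, Met1 replicate 3 or SSM2 replicate 1 or 2 (adjusted p up to 0.0778, 0.0937 and 0.141). The Cpox call ended too with a variance trend (adjusted p = 0.0538) and with only the 2 lines compared (0.071). Hpx, hemopexin (0.98, adjusted p = 0.0486), and Mcoln1, a lysosomal channel that releases iron (0.47, adjusted p = 0.0234), were higher in Met1 than in SSM2. The Hpx call ended in 8 of 9 such fits, all but the one without Met1 replicate 3, and that of Mcoln1 without any 1 of the Met1 arrays or of SSM2 replicates 2 and 3 (adjusted p up to 0.136 and 0.0966). With all arrays kept, the Hpx call ended after cyclic loess (adjusted p = 0.0545) and with every feature tested (0.0502), and that of Mcoln1 with a variance trend (0.0581).

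**Figure D5:**
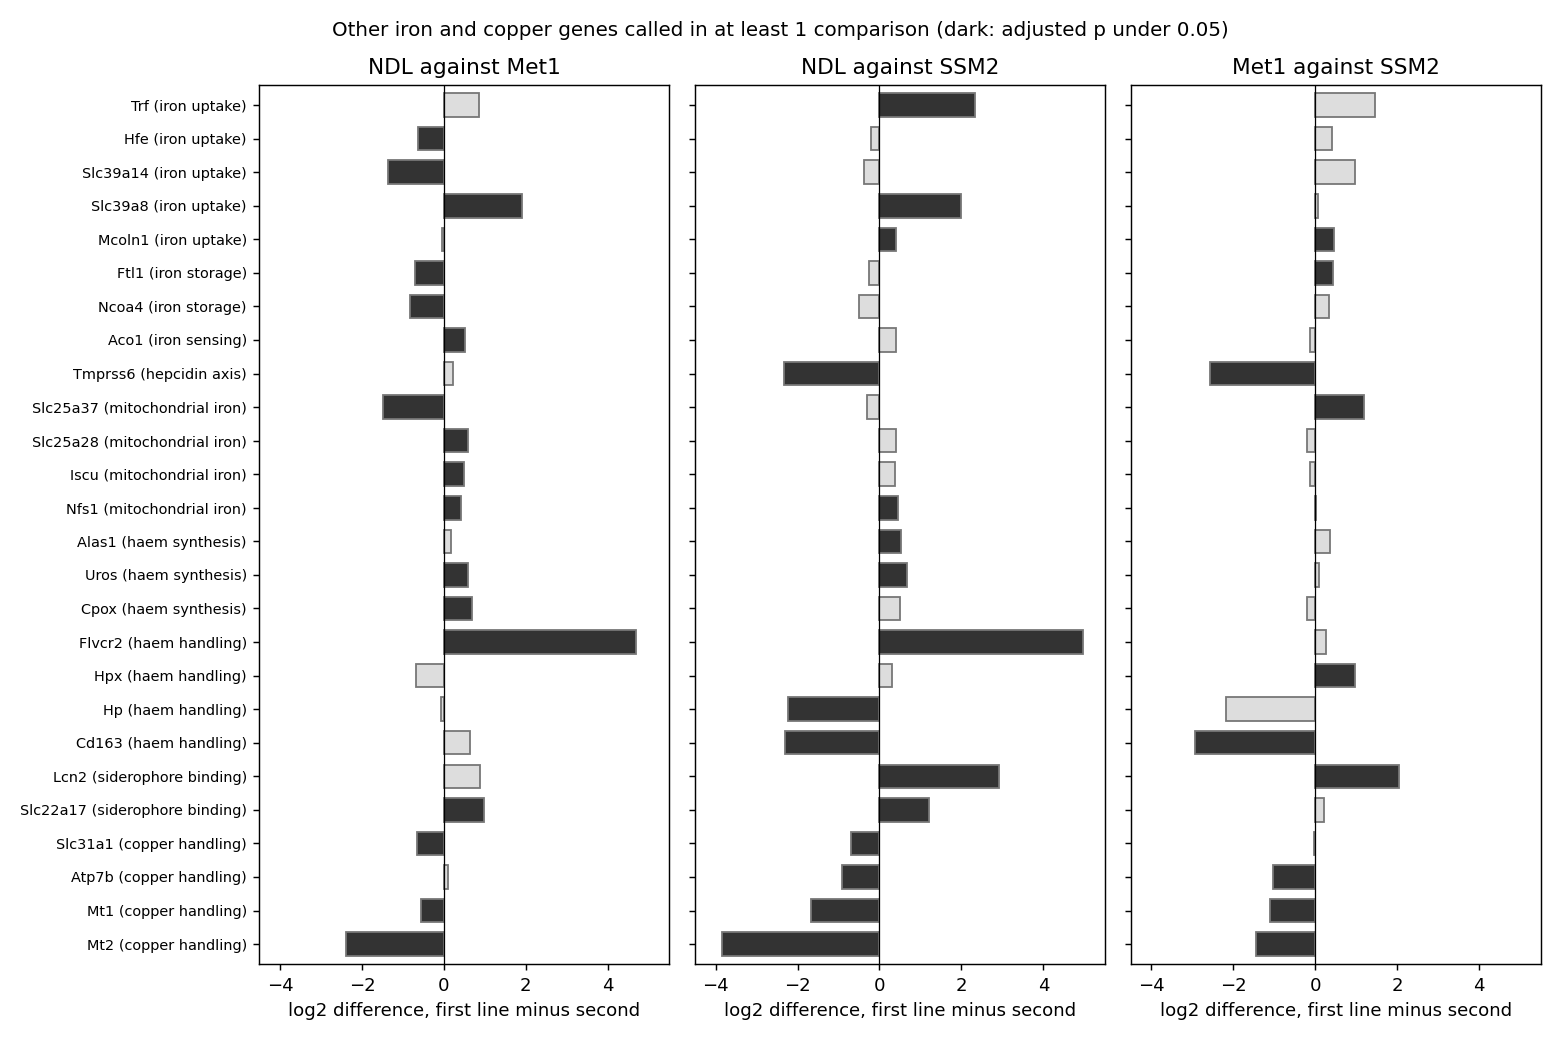
Log2 differences (horizontal axes) of the other iron, haem and copper genes called in at least 1 comparison, ordered by role; dark bars passed an adjusted p of 0.05. Flvcr2 stands out above 0 in both NDL comparisons, and Mt2 and Mt1 lie below 0 in all 3.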

How the data were processed

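Per the labels' protocols, 100 ng of frozen-tumour RNA (miRNeasy extraction) went onto each Affymetrix Mouse Gene 1.0 ST array. The authors deposited log2 values from RMA, run in oligo 1.40.2 per the submitters' processing notes. RMA corrects background, equalises array distributions by quantiles and summarises probes, so a shift shared by all genes would be removed. The sources used here give no scan dates, so batches could not be examined.

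Of 35556 features, 1621 carried several symbols, 12146 none and 21789 carried 1 symbol. For 21698 of these the gene identifier matched a RefSeq entry (GRCm38.p6) and the RefSeq symbol was used, whether or not it differed. The other 91 kept the annotated symbol. The 19938 genes, 1 feature each and without a filter on signal, were fitted together in limma 3.58.1 (R 4.3.3) with lmFit and eBayes to all 9 arrays together (residual degrees of freedom 6, prior 2.42). Two-sided contrasts were adjusted by Benjamini-Hochberg over the whole table, and a call needs an adjusted p below 0.05. SE is the standard error from the fit. The fit was also run on simulated normal values with 1 spread a gene for all lines. That run cannot show whether a shared spread suits these arrays, whose median SD was 0.20 in NDL, 0.11 in Met1 and 0.18 in SSM2.

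Members and lists were chosen with earlier results of these data known. All members are named. Other iron and copper genes are named where they are among the 4 largest called differences in a direction. Ftl1, Sri, Abcb1b, Dbf4, Zfp804b and Tex47 were named after their values were seen. Alternatives were a signal filter, a variance trend, cyclic loess, equal medians, array weights, other feature rules, a replicate block, pairs of lines alone and arrays left out.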

Additional observations from a re-analysis of the deposited data

How the results depend on the processing

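Of the 10 genes, Steap2 and Fth1 against SSM2 in NDL, Steap2 in NDL against Met1, and Slc40a1 and Slc11a2 in Met1 against SSM2 kept their calls under all 19 alternatives. Genes called higher in NDL than in Met1 (1) numbered 0 to 1 with an array left out, those lower (3) 3 to 4, and 1 without NDL replicates 1 and 2. Against SSM2, NDL had 2 higher throughout these fits, 1 with only the 2 lines compared and 1 without NDL replicates 1 and 2, and 3 lower, 2 to 4 with an array left out and 1 without NDL replicates 1 and 2. Met1 had 2 higher than SSM2, 1 to 3 with an array left out, and 1 lower throughout.

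The other iron and copper genes called numbered 7 to 22 between NDL and Met1 with an array left out, and 10 without NDL replicates 1 and 2. Between NDL and SSM2 they numbered 9 to 24, 9 with only the 2 lines compared, and 8 without NDL replicates 1 and 2. Between Met1 and SSM2 they numbered 4 to 11, 19 with array weights, 6 with only the 2 lines compared, and 6 without NDL replicates 1 and 2. The cause of these shifts was not tested, beyond the smaller number of arrays in fits that leave some out.

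Among the 10 genes, signs turned only for differences that passed in neither fit. For Steap3 in NDL minus Met1 (0.00 in size) they were 0.082 after cyclic loess, 0.024 with equal medians and -0.17 to 0.14 with an array left out. Without NDL replicates 1 and 2, Tfrc in NDL minus Met1 was 0.92, Slc40a1 in NDL minus SSM2 0.38 and Cp in NDL minus SSM2 0.14. Array weights gave -0.099 for Steap4 in Met1 minus SSM2. With an array left out, the ranges were -0.87 to 0.29 for Tfrc in NDL minus Met1, -0.0057 to 1.15 in NDL minus SSM2, -0.94 to 0.049 for Slc40a1 in NDL minus SSM2, -0.052 to 0.41 for Steap1 and -0.74 to 0.56 for Steap4 in Met1 minus SSM2. The Cp difference between NDL and Met1 passed with the signal filter (adjusted p = 0.0397), the trend (0.0479), equal medians (0.0405) and array weights (0.0169).

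Arrays of one number did not deviate together (r from -0.35 to 0.29, over 0.1 in 3 of 9 pairs), so the numbers were not used as pairs. With the replicate block, the called genes among the 10 numbered 1 higher and 3 lower, 2 and 3, and 2 and 1 in the 3 comparisons, as without it, and other iron and copper genes 13, 13 and 7. The block ended the calls of Ncoa4 (adjusted p = 0.0601) and Sri (0.0709) in NDL against Met1, and of Mcoln1 (0.0544) and Ftl1 (0.0599) in Met1 against SSM2. Steap1 and Steap2 in NDL lay close to the 25th percentile of signal (4.91), where fold sizes are uncertain. Both lay above the Y-linked gauge of background (2.61 to 3.85), but those 3 transcripts do not give the background of the Steap features. With NDL replicate 3 alone, calls against SSM2 ended for Trf (adjusted p = 0.166), Cd163 (0.151), Tmprss6 (0.164), Hp (0.192) and Sri (0.342), and against Met1 for Slc39a14 (0.256), Ncoa4 (0.18) and Sri (0.569); that array is assumed to vary like the other groups.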
